A study of Mus musculus with 40 samples.

Results

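The genes described here are those of the transcription elongation kinase P-TEFb and its partners: Cdk9, Ccnt1, Ccnt2, Hexim1, Larp7, Supt5, Cdk7, Ccnh and Cdk12. They are 9 of the 14916 genes tested. A probe set (a group of short probes whose brightness is summarised as 1 value) counted for a gene when it was annotated to that gene alone, under its current symbol or the older name Supt5h, and the probe set with the highest mean over all arrays stood for the gene. All 9 genes had such a probe set and all 9 passed the filter on low values.

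The arrays hold poly(A) RNA of B6D2 mouse embryos at the 2-cell and the 1-cell stage. The study set embryos made by somatic cell nuclear transfer (SCNT), in which the nucleus of a cumulus cell is placed in an egg, and parthenogenetic embryos, which develop from an egg without sperm, against fertilized embryos. Some SCNT and fertilized embryos were kept in α-amanitin, which blocks RNA polymerase II, and set against untreated embryos. The 10 groups are thus SCNT embryos with amanitin, SCNT embryos, parthenogenetic embryos, fertilized embryos with amanitin and fertilized embryos, each at the 2-cell and the 1-cell stage. Each group has 4 arrays, except the untreated 1-cell SCNT embryos with 3, so 39 arrays were used. Amanitin was read from a letter A in the sample titles, which the labels spell out for 7 of 8 SCNT samples and for none of the 8 fertilized ones, where it rests on the same letter and on the stated design. The labels name the medium MEMα for 13 of 16 SCNT samples and KSOM for 1 of 16 fertilized samples, so medium and origin cannot be told apart. Nothing in them tells whether replicates are separate cultures or animals, and p-values cover no more than the spread among these samples.

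P-TEFb is the pair of the kinase CDK9 and a T-type cyclin. It releases RNA polymerase II from its pause near the start of genes by phosphorylating the polymerase tail, the factor DSIF and the negative factor NELF. In many cells a share of P-TEFb is held inactive on the 7SK RNA by HEXIM proteins, and the start of transcription from the embryo's own genome in the mouse falls at the late 1-cell and the 2-cell stage.

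Promoter windows from RefSeq (build GRCm38.p6, from 250 bases before to 50 after the start that the RefSeq table uses, 5′ to 3′ on the gene's strand) were found for 8 of the 9 genes, Ccnh being the one without an entry. The 3 printed here belong to the genes whose highest group means were those of the untreated 2-cell groups on every probe set kept. Capitals mark matches, on either strand, to 7 motifs searched. Those with a match in these windows are TATANAA for the TATA box, CCAAT for the CCAAT box, GGGCGG for the GC box and CCGGAAG for the ETS motif. The E-box (CACGTG), the NRF1 motif and the heat shock element had no match in these windows.
Cdk9 promoter, chr2:32712735-32713034, minus strand: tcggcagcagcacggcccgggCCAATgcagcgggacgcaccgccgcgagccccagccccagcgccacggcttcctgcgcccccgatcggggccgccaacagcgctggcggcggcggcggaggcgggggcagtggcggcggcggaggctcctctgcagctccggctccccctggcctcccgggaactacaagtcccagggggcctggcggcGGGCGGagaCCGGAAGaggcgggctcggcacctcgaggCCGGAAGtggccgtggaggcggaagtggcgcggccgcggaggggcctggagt
Hexim1 promoter, chr11:103116075-103116374, plus strand: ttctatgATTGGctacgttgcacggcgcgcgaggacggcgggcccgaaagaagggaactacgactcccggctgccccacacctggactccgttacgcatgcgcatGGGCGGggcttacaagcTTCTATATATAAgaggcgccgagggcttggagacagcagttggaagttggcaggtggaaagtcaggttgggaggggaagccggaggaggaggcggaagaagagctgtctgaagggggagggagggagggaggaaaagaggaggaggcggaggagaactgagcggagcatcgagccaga
Supt5 promoter, chr7:28338670-28338969, minus strand: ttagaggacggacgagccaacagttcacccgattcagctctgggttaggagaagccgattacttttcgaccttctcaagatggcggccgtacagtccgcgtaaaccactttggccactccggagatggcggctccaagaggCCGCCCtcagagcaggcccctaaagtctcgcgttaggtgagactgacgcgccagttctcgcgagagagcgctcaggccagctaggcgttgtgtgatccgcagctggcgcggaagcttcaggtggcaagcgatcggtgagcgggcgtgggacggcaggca
In these letters the Cdk9 window holds 1 CCAAT match, 1 GC box and 2 ETS matches. The Hexim1 window holds TATANAA on both strands, in overlapping letters, with 1 CCAAT match and 1 GC box, and the Supt5 window holds 1 GC box. Of all 32851 windows of this length, 11.3% held TATANAA, 37.4% CCAAT, 35.7% GGGCGG, 8.86% CCGGAAG, 7.15% CACGTG, 0.971% the NRF1 motif and 0.603% the heat shock element. GC content was 78.3% for Cdk9, 61.0% for Hexim1 and 61.3% for Supt5, against a median of 52.7% over all windows. The Supt5 window is set on a start inside the annotated gene, not on its outer end, whereas those of Cdk9 and Hexim1 are set on the outer end. The windows held 39, 21 and 28 CpG pairs in the same order, against a median of 7. TATANAA was chosen as the TATA motif after the Hexim1 window was seen, and a match describes letters only.

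Values are normalized log2 intensities, levels are compared only within a probe set, and differences are in log2 units with the standard error (SE) of the limma fit. A gene is called where its Benjamini-Hochberg adjusted p over all 14916 genes was below 0.05. The overall median of 5.34 marks the range where the constant added before taking logs sets part of a difference. In these bulk samples, fewer cells with a transcript and less of it per cell cannot be told apart. Replicate arrays correlated at 0.9397 to 0.9797 across genes. Of the markers of the labelled material, 7 or 8 of 8 oocyte markers were above the median on all arrays of every group, and the 5 measured 2-cell markers summed to 8900 to 14100 intensity units in untreated 2-cell groups and to 232 to 1160 in all other groups. The 11 cumulus cell markers summed to 3590 to 5220 in untreated 2-cell SCNT and fertilized embryos and to 898 to 1700 elsewhere. Of these, Amhr2 had mean log2 values of 11.59, 9.63 and 11.35 in untreated 2-cell SCNT, parthenogenetic and fertilized embryos and of 5.12 to 5.61 elsewhere. In each group 3 to 6 of the 11 were above the overall median on all arrays. Group means of Nr5a2 (8.05 to 10.31), Foxl2 (6.92 to 8.02) and Col4a1 (5.48 to 7.45) were above that median in every group, and those of Vim (3.59 to 5.46) and Tnfaip6 (3.26 to 5.61) were mostly below it. The 6 sperm markers summed to 250 to 518 and the 3 blood markers to 70.5 to 263. Signal of 18S ribosomal RNA, mean log2 of 3 probe sets, was 10.25 to 11.22 in the untreated 2-cell groups and 12.72 to 13.25 in the others. The added poly(A) control transcripts averaged 3.58 and 3.68 in the 1-cell SCNT groups, 10.24 in treated 2-cell SCNT embryos and 5.99 to 8.46 elsewhere. The hybridization controls averaged 10.55 in treated 2-cell SCNT embryos and 9.16 to 9.71 elsewhere. The part of these controls in the differences below was not tested.

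Cdk9, the catalytic kinase, was high in the 3 untreated 2-cell groups and low in all other groups. Its signal was 10.70, 10.93, 10.73 and 11.14 on the 2-cell SCNT arrays, against 7.65, 8.0 and 8.02 on the 1-cell SCNT arrays. In parthenogenetic embryos it was 11.13, 11.19, 11.11 and 11.39 at the 2-cell stage, against 8.83, 8.42, 8.48 and 8.59 at the 1-cell stage. In fertilized embryos it was 11.15, 11.26, 11.27 and 11.51 at the 2-cell stage, against 7.43, 8.10, 7.92 and 7.94 at the 1-cell stage. Every 2-cell array thus lay above every 1-cell array of its origin, with no overlap. The differences were 2.98 (SE 0.16) in SCNT, 2.63 (SE 0.15) in parthenogenetic and 3.45 (SE 0.15) in fertilized embryos (adjusted p at most 2.24e-18). The difference was smaller in parthenogenetic than in fertilized embryos (-0.83, SE 0.21, adjusted p = 0.00149), and the 1-cell parthenogenetic arrays already stood 0.73 (SE 0.15) above the 1-cell fertilized ones. With its probe sets averaged that contrast was -0.44 and on the second probe set -0.05, neither of which was called. Of the 9 genes, 4 were called in that contrast, against 35.4% of all genes.

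With amanitin the 2-cell level of Cdk9 lay near that of 1-cell embryos. The 2-cell SCNT embryos with amanitin had 8.22, 8.10, 7.90 and 7.97, a difference of -2.83 (SE 0.15) from the untreated 2-cell SCNT embryos. The 2-cell fertilized embryos with amanitin had 8.87, 8.89, 8.75 and 8.63, a difference of -2.51 (SE 0.15) from the untreated ones (adjusted p at most 2.46e-18). Neither treated group overlapped its untreated group. The amanitin effect did not differ detectably between the origins (-0.32, 95% interval -0.73 to 0.10, adjusted p = 0.244). In treated fertilized embryos Cdk9 was still 0.68 (SE 0.15) higher at the 2-cell than at the 1-cell stage, but under median centring of the arrays this was 0.08 and not called. In treated SCNT embryos the same difference was 0.21 (SE 0.15) and was not called.

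A second, dim probe set of Cdk9 moved in the same directions. It rose in parthenogenetic (1.67, SE 0.30) and fertilized embryos (1.73, SE 0.30) and fell with amanitin in 2-cell fertilized embryos (-1.22, SE 0.30). In SCNT embryos it gave 0.71 (SE 0.33) for the stage and -0.64 (SE 0.30) for amanitin, neither of which was called. Its group means lay between 4.76 and 6.89, around the overall median.

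**Figure D1:**
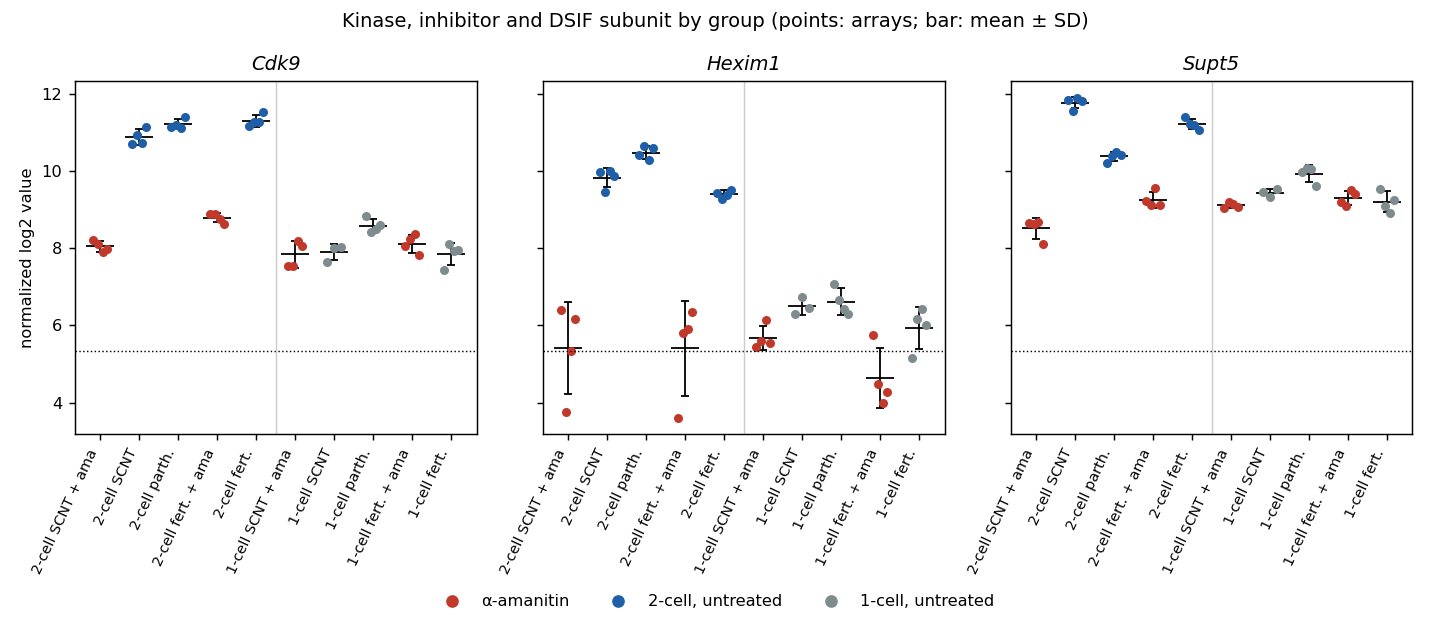
Normalized log2 value (vertical axis) of Cdk9, Hexim1 and Supt5 in the 10 groups (horizontal axis), 2-cell groups left of the grey line and 1-cell groups right of it. Points are arrays, bars are mean ± SD (n = 4, and 3 for untreated 1-cell SCNT), and the dotted line is the overall median of 5.34; the untreated 2-cell groups (blue) stand above all others, for Supt5 with the parthenogenetic groups close together at 10.37 and 9.93.

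Hexim1, which together with 7SK RNA inhibits the kinase, was likewise high in the 3 untreated 2-cell groups, and lay near the overall median in the others. The 2-cell SCNT arrays had 9.97, 9.45, 9.99 and 9.87, against 6.28, 6.73 and 6.45 on the 1-cell SCNT arrays. The 2-cell parthenogenetic arrays had 10.41, 10.63, 10.27 and 10.58, against 7.07, 6.66, 6.43 and 6.29 on the 1-cell parthenogenetic ones. The 2-cell fertilized arrays had 9.43, 9.26, 9.37 and 9.51, against 5.16, 6.15, 6.41 and 6.0 on the 1-cell fertilized ones. Again no 2-cell array came near a 1-cell array. The differences were 3.34 (SE 0.45), 3.86 (SE 0.42) and 3.46 (SE 0.42) in SCNT, parthenogenetic and fertilized embryos (adjusted p at most 2.67e-08). They were larger in size than 95.2%, 98.9% and 95.6% of all genes' differences in those comparisons.

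With amanitin Hexim1 dropped to about the overall median in 2-cell embryos. The treated SCNT arrays had 6.39, 3.76, 5.34 and 6.17 and the treated fertilized arrays 3.60, 5.79, 5.91 and 6.34, so both treated groups were widely spread and both lay wholly below their untreated groups. The differences were -4.41 (SE 0.42) in SCNT and -3.98 (SE 0.42) in fertilized embryos (adjusted p at most 5.47e-11). With the constants at the 5th and 40th percentile of all values they were -4.67 and -3.91 in SCNT and -4.26 and -3.49 in fertilized embryos. At the 2-cell stage Hexim1 was 1.08 (SE 0.42) higher in parthenogenetic than in fertilized embryos (adjusted p = 0.0303), with no overlap of arrays, but the call was lost under median centring (0.88, adjusted p = 0.0841) and with the low constant (1.09, adjusted p = 0.082). It was also lost without 2-cell parthenogenetic replicate 2 or 4 or 2-cell fertilized replicate 2 or 3 (1.03 to 1.07, adjusted p 0.0532 to 0.0641). A second Hexim1 probe set did not pass the filter, with group means of 3.63 to 4.98.

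In the order of levels, Cdk9 was highest in 2-cell fertilized (11.30 ± 0.15), then 2-cell parthenogenetic (11.21 ± 0.13) and 2-cell SCNT embryos (10.87 ± 0.21, SD, n = 4 each), neighbours whose arrays overlapped. A gap of 2.09 without overlap separated these from all other groups, which ran from 8.79 to 7.83 and overlapped their neighbours except between 1-cell parthenogenetic embryos (8.58) and 1-cell fertilized embryos with amanitin (8.11). For Hexim1 the order began with 2-cell parthenogenetic, 2-cell SCNT and 2-cell fertilized embryos. A gap of 2.78 followed, and the other groups, from 6.61 down to 4.63, each overlapped the next. Over the 10 group means Cdk9 and Hexim1 correlated at r = 0.93, a description of groups that share stage and treatment. By the same measure the genes most like Cdk9 were Dpagt1 (r = 0.993), Naif1 (0.992), Guca1a (0.991), D13Ertd608e (0.990) and Sp110 (0.990). Those most like Hexim1 were Slc16a1 (0.991), Spz1 (0.988), Ints6l (0.986), Gt(ROSA)26Sor (0.985) and Fzd4 (0.982).

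Supt5, the large subunit of the pausing and elongation factor DSIF and a substrate of P-TEFb, was represented by 1 probe set. It had 11.82, 11.55, 11.88 and 11.80 on the 2-cell SCNT arrays, against 9.44, 9.33 and 9.52 on the 1-cell SCNT arrays. It had 11.39, 11.22, 11.18 and 11.05 on the 2-cell fertilized arrays, against 9.54, 9.10, 8.91 and 9.25 on the 1-cell fertilized ones. The stages were fully apart in both origins, by 2.33 (SE 0.14) in SCNT and 2.01 (SE 0.13) in fertilized embryos (adjusted p at most 4.94e-17). In parthenogenetic embryos the arrays had 10.20, 10.39, 10.48 and 10.41 at the 2-cell stage, against 9.98, 10.08, 10.05 and 9.60 at the 1-cell stage. They did not overlap but stood close, 0.44 (SE 0.13) apart, a difference that became -0.14 and was not called under median centring. The stage difference was smaller in parthenogenetic than in fertilized embryos (-1.57, SE 0.18, adjusted p = 5.31e-09).

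Amanitin lowered Supt5 in 2-cell embryos, and more in SCNT than in fertilized ones. Treated 2-cell SCNT arrays had 8.64, 8.63, 8.67 and 8.11, and treated 2-cell fertilized arrays had 9.22, 9.11, 9.55 and 9.12. All treated arrays lay below all untreated 2-cell arrays, with differences of -3.25 (SE 0.13) in SCNT and -1.96 (SE 0.13) in fertilized embryos. The effects differed by -1.29 (SE 0.18, adjusted p = 2.52e-07), in a contrast where 4 of the 9 genes and 38.9% of all genes were called. Untreated 2-cell SCNT arrays all lay above the untreated 2-cell fertilized ones, by 0.55 (SE 0.13, adjusted p = 0.000825), which became 0.21 and not called under median centring.

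The T-type cyclins gave different answers by probe set, so no single stage course can be given for either gene. The brighter probe set of Ccnt1, cyclin T1, showed 7.18, 7.41, 7.15 and 7.43 on the 2-cell SCNT arrays, against 7.08, 7.55 and 7.26 on the 1-cell SCNT arrays. It showed 7.75, 6.95, 7.91 and 8.07 on the 2-cell fertilized arrays, against 7.95, 7.37, 7.32 and 7.11 on the 1-cell fertilized ones. The stages overlapped in both origins and the differences, 0.00 (SE 0.29) and 0.23 (SE 0.27), were not called. The second probe set of Ccnt1 showed 8.30, 8.27, 8.49 and 8.07 on the 2-cell SCNT arrays, and 8.91, 8.94, 9.0 and 8.89 on the 2-cell fertilized arrays, against 4.92, 4.06, 4.64 and 5.68 on the 1-cell fertilized arrays. On it the stage differences of Ccnt1 were 3.43 (SE 0.35) in SCNT, 2.16 (SE 0.33) in parthenogenetic and 4.11 (SE 0.33) in fertilized embryos, all called.

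Both probe sets of Ccnt1 fell with amanitin at the 2-cell stage. On the brighter one, treated SCNT arrays had 4.36, 4.22, 4.49 and 4.20 and treated fertilized arrays 5.95, 4.26, 5.61 and 6.33, all below every untreated 2-cell array of their origin. The differences were -2.98 (SE 0.27) in SCNT and -2.13 (SE 0.27) in fertilized embryos, and on the second probe set -4.80 (SE 0.33) and -4.62 (SE 0.33). Both also were lower in parthenogenetic than in fertilized 2-cell embryos (-1.03, SE 0.27, and -1.93, SE 0.33). Treated levels lay near or below the overall median.

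Ccnt2, cyclin T2, had 5 probe sets, all kept. The brightest fell between the stages in all 3 origins (-0.94, SE 0.15, in SCNT, -0.86, SE 0.14, in parthenogenetic and -0.95, SE 0.14, in fertilized embryos). The 2-cell fertilized arrays of that probe set had 8.94, 8.91, 8.94 and 8.94, against 9.47, 9.93, 10.19 and 9.95 on the 1-cell fertilized arrays, with no overlap. Of the other 4 probe sets, in order of brightness, the second and the third also fell in all 3 origins, the fourth was not called in any, and the fifth rose in all 3, by 1.92 (SE 0.23), 1.70 (SE 0.21) and 1.74 (SE 0.21). Their responses to amanitin at the 2-cell stage ran in both directions too. On the third the treated SCNT arrays had 9.22, 9.27, 9.15 and 8.89, against 5.76, 6.64, 5.45 and 6.34 on the untreated ones, a rise of 3.08 (SE 0.19). On the fifth the treated SCNT arrays had 6.0, 5.77, 5.92 and 5.66, against 8.09, 7.99, 7.53 and 8.56, a difference of -2.20 (SE 0.21). The brightest probe set gave -0.83 (SE 0.14) in SCNT, which was called, and -0.25 (SE 0.14) in fertilized embryos, which was not. Where on the transcripts these probe sets lie was not analysed here.

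**Figure D2:**
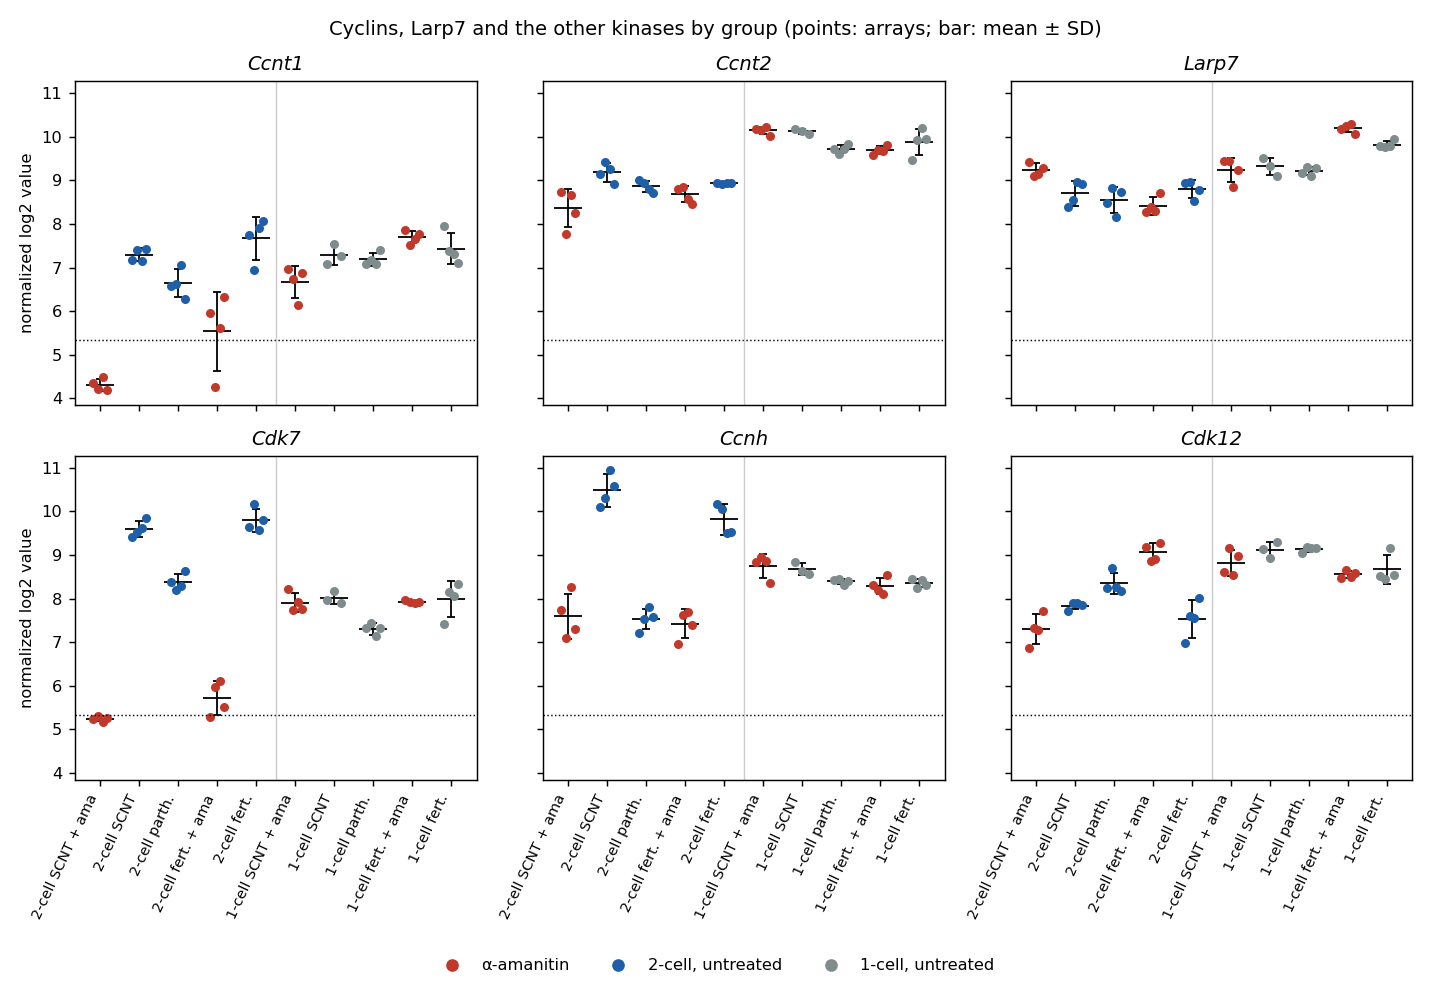
Normalized log2 value (vertical axis) of Ccnt1, Ccnt2, Larp7, Cdk7, Ccnh and Cdk12, each on its brightest probe set, in the 10 groups (horizontal axis), with points, bars and lines as in the plot of Cdk9, Hexim1 and Supt5. Cdk7 and Ccnh are high in the untreated 2-cell SCNT and fertilized groups, Cdk7 drops to 5.24 and 5.72 with amanitin, and Ccnt2 is higher in every 1-cell group than in every 2-cell group.

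Larp7, which binds and stabilises 7SK RNA, was the one of the 9 genes whose 2-cell level moved in opposite directions with amanitin in the 2 origins on both of its probe sets. On the brighter one, treated 2-cell SCNT arrays had 9.43, 9.10, 9.15 and 9.28, against 8.38, 8.55, 8.97 and 8.92 on untreated ones. Treated 2-cell fertilized arrays had 8.27, 8.39, 8.29 and 8.72, against 8.95, 8.96, 8.52 and 8.78 on untreated ones. The SCNT groups did not overlap, with treated embryos higher, and the fertilized groups overlapped, with treated embryos lower on average. The differences were 0.53 (SE 0.14, adjusted p = 0.00111) in SCNT and -0.39 (SE 0.14, adjusted p = 0.0176) in fertilized embryos. The second probe set gave 0.43 (SE 0.14) and -1.11 (SE 0.14). The effects differed between the origins by 0.92 (SE 0.20, adjusted p = 0.000285) and by 1.54 (SE 0.20, adjusted p = 4.55e-08) on these probe sets. The SCNT difference was 0.28 and not called under median centring, and the fertilized one was lost without 1 of 4 arrays (-0.34 or -0.33, adjusted p 0.0535 to 0.0601), namely untreated replicate 1 or 2 or treated replicate 1 or 3.

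Between the stages the Larp7 probe sets disagreed. The brighter one fell in SCNT (-0.61, SE 0.15), parthenogenetic (-0.66, SE 0.14) and fertilized embryos (-1.02, SE 0.14). The second rose in SCNT (0.37, SE 0.15) and fertilized embryos (0.87, SE 0.14), and gave 0.06 (SE 0.14) in parthenogenetic ones. At the 1-cell stage Larp7 was the only one of the 9 genes called between SCNT and fertilized embryos (-0.50, SE 0.15, adjusted p = 0.0453), where 5.56% of all genes were called. That call was lost under 6 of 11 processing alternatives and when any 1 of 6 of the 7 arrays was left out (all but fertilized replicate 1, -0.60 to -0.40), and the second probe set gave 0.01.

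Cdk7 and Ccnh encode the kinase and the cyclin of the CDK-activating kinase, part of the general transcription factor TFIIH, which phosphorylates the polymerase tail at promoters and activates CDK9. On its brightest probe set Cdk7 had 9.41, 9.53, 9.62 and 9.84 on the 2-cell SCNT arrays, against 7.97, 8.17 and 7.89 on the 1-cell SCNT ones. It had 9.65, 10.17, 9.58 and 9.80 on the 2-cell fertilized arrays, against 7.41, 8.15, 8.06 and 8.34 on the 1-cell fertilized ones. All 2-cell arrays were higher, by 1.59 (SE 0.18) and 1.81 (SE 0.17), and by 1.07 (SE 0.17) in parthenogenetic embryos. Treated 2-cell SCNT arrays had 5.24, 5.30, 5.16 and 5.26 and treated 2-cell fertilized arrays 5.29, 5.98, 6.11 and 5.52. The treated SCNT values lay just below the overall median, and 3 of the 4 treated fertilized ones lay above it. All of them were below every 1-cell array. The differences of -4.36 (SE 0.17) in SCNT and -4.08 (SE 0.17) in fertilized embryos were larger in size than 97.0% and 97.3% of all genes' differences.

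The second Cdk7 probe set moved the other way. It fell between the stages in SCNT (-1.74, SE 0.28), parthenogenetic (-1.61, SE 0.26) and fertilized embryos (-1.13, SE 0.26). It was higher with amanitin by 0.64 (SE 0.26) in SCNT and 0.94 (SE 0.26) in fertilized embryos. Treated fertilized arrays had 7.19, 7.92, 7.41 and 7.85, against 6.95, 6.90, 6.56 and 6.20 on untreated ones, and in SCNT embryos treated replicate 1, at 5.25, lay below all untreated arrays. The 2 other probe sets kept were dim, with means of 5.04 and 4.93.

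Ccnh was set apart by the parthenogenetic embryos. Its brightest probe set had 7.22, 7.54, 7.80 and 7.57 on the 2-cell parthenogenetic arrays, against 10.16, 10.06, 9.51 and 9.52 on the 2-cell fertilized arrays. The 2-cell SCNT arrays had 10.09, 10.30, 10.94 and 10.58. The 1-cell arrays had 8.42, 8.45, 8.30 and 8.40 in parthenogenetic and 8.44, 8.24, 8.42 and 8.30 in fertilized embryos, and these overlapped. Ccnh therefore rose between the stages in SCNT (1.80, SE 0.21) and fertilized embryos (1.46, SE 0.19) and fell in parthenogenetic embryos (-0.86, SE 0.19). Set against the fertilized stage difference, the parthenogenetic one differed by -2.32 (SE 0.28, adjusted p = 7.87e-09). The second probe set gave 1.24 (SE 0.22), 0.93 (SE 0.21) and -0.54 (SE 0.21) for the same 3 stage differences, all called.

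Treated 2-cell embryos had Ccnh values of 7.73, 7.09, 8.26 and 7.31 in SCNT and 6.96, 7.63, 7.69 and 7.40 in fertilized embryos, so the 2-cell parthenogenetic arrays lay within the range of the treated SCNT ones. Amanitin lowered Ccnh in SCNT (-2.88, SE 0.19) and fertilized 2-cell embryos (-2.4, SE 0.19), and on the second probe set gave -1.5 (SE 0.21) and -1.45 (SE 0.21). The third probe set, dim with group means of 3.80 to 5.44, was called in neither. The 2-cell SCNT level was 0.66 (SE 0.19) above the fertilized one (adjusted p = 0.00732), but with overlap. That call was lost under median centring (0.35) and without 2-cell SCNT replicate 3 (0.51, adjusted p = 0.057).

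Cdk12, a kinase that works with cyclin K on the polymerase tail during elongation, had 6 probe sets kept that disagreed in direction. The brightest had 9.19, 8.87, 8.90 and 9.28 on treated 2-cell fertilized arrays, against 6.97, 7.6, 7.55 and 8.01 on untreated ones, a rise of 1.53 (SE 0.18). In SCNT embryos it had 6.87, 7.32, 7.29 and 7.71 with amanitin, against 7.71, 7.89, 7.89 and 7.85 without, -0.54 (SE 0.18), with the groups meeting at 7.71. The effects differed by -2.07 (SE 0.25, adjusted p = 9.47e-09). Without treated SCNT replicate 1 the SCNT difference was -0.39 and not called (adjusted p = 0.0532). The opposite signs were those of the brightest probe set alone. On each of the other 5 the amanitin effect had the same sign in both origins. Over the 6 probe sets the contrast between origins was called lower on 3, higher on 1 and not called on 2. Of the other 5 probe sets, 3 fell with amanitin in fertilized embryos (-1.79, -1.55 and -0.98), 1 rose (0.43) and 1 was not called. Between the stages in fertilized embryos the brightest fell (-1.14, SE 0.18), as did the second (-1.56, SE 0.16), while 3 others rose by 0.98 to 1.99.

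**Figure D3:**
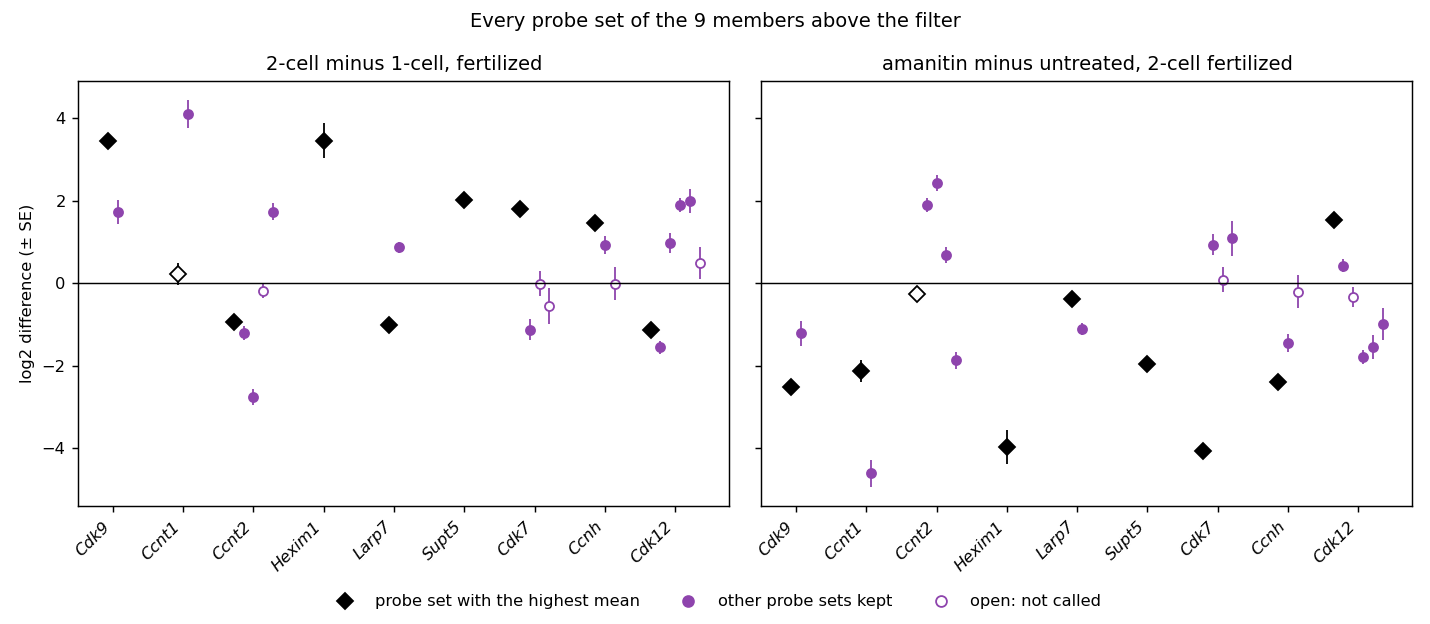
Log2 difference ± SE (vertical axis) of each of the 26 probe sets kept, by gene (horizontal axis), for 2-cell minus 1-cell fertilized embryos (left) and for amanitin minus untreated 2-cell fertilized embryos (right). Diamonds are the brightest probe set of a gene, circles the others, and open symbols were not called; Cdk9 keeps 1 direction, whereas Ccnt2, Cdk7 and Cdk12 have probe sets on both sides of 0 in both panels.

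Over all 26 probe sets kept of the 9 genes, 12 rose, 8 fell and 6 were not called between the stages in SCNT embryos. In parthenogenetic embryos the counts were 9, 10 and 7, and in fertilized embryos 13, 7 and 6. Some genes had probe sets called in both directions: 4 in SCNT, 3 in parthenogenetic and 4 in fertilized embryos. With amanitin at the 2-cell stage 7 rose, 14 fell and 5 were not called in SCNT, and 7, 15 and 4 in fertilized embryos, with 3 genes called in both directions in each. These counts describe how far the probe sets of a gene moved together. The share called over all probe sets of the array is not given beside them, so they do not set the 9 genes apart.

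On the brightest probe sets, 8 of the 9 genes were called between the stages in SCNT embryos (5 higher, 3 lower), where 60.7% of all genes were called (26.3% higher, 34.4% lower). In parthenogenetic embryos it was 8 (4 higher, 4 lower), against 49.1% (21.7% higher, 27.4% lower). In fertilized embryos it was 8 (5 higher, 3 lower), against 60% of all genes (25.8% higher, 34.2% lower). The median difference of the 9 genes was 1.59 in SCNT, -0.55 in parthenogenetic and 1.46 in fertilized embryos, beside -0.14, -0.04 and -0.12 over all genes. The genes that rose in all 3 origins were Cdk9, Hexim1, Supt5 and Cdk7, those that fell in all 3 were Ccnt2, Larp7 and Cdk12, and Ccnt1 was called in none. No gene's stage difference was called between SCNT and fertilized embryos (0 of 9 by limma, against 19.0% of all genes), and the values ran from -0.47 (SE 0.22) for Cdk9 to 0.41 (SE 0.21) for Larp7. With the values as deposited, under median centring and with averaged probe sets Cdk9 was called there, at -0.65, -0.83 and -0.74.

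With amanitin at the 2-cell stage, 9 of 9 genes were called in SCNT embryos (1 higher, 8 lower), against 69.2% of all genes (39.6% higher, 29.7% lower). In fertilized embryos 8 of 9 were called (1 higher, 7 lower), against 64.3% (38.6% higher, 25.8% lower). Their median differences were -2.88 and -2.13, beside 0.28 and 0.27 over all genes. At the 1-cell stage limma called 0 of the 9 genes with amanitin in SCNT embryos (0.429% of all genes called) and 0 in fertilized embryos (6.03%), on the brightest probe sets. The unadjusted p was below 0.05 for Ccnt1 and Supt5 in SCNT and for Hexim1 and Larp7 in fertilized embryos. Of the other probe sets, the second of Ccnt1 was called lower in treated 1-cell fertilized embryos (mean 3.46, against 4.82 untreated). The fifth of Ccnt2 was called lower in treated 1-cell SCNT embryos (4.86, against 6.12 untreated). The largest 1-cell value on the brightest probe sets was that of Hexim1 in fertilized embryos. Its treated arrays had 5.76, 4.49, 4.00 and 4.28, against 5.16, 6.15, 6.41 and 6.0 on untreated ones. The groups overlapped through treated replicate 1 and untreated replicate 1, and the difference was -1.30 (SE 0.42, adjusted p = 0.0553). Without treated replicate 1 it was -1.67 (adjusted p = 0.0188) and without untreated replicate 1 it was -1.55 (adjusted p = 0.0213).

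**Figure D4:**
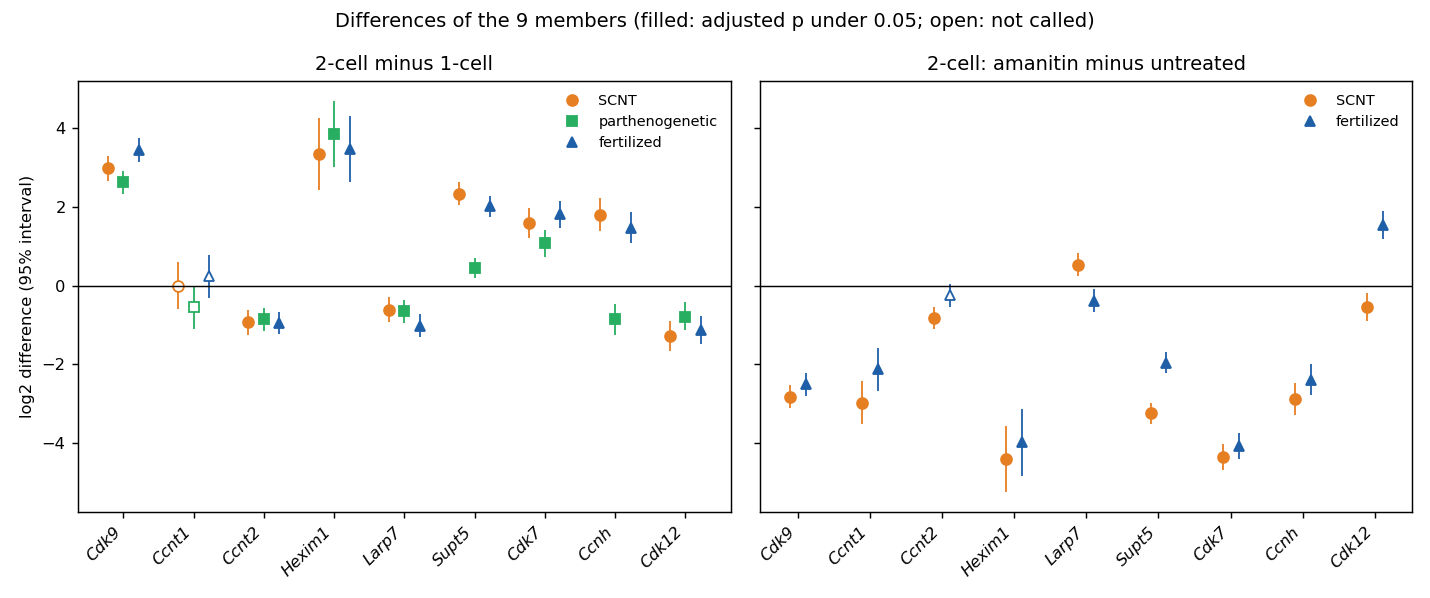
Log2 difference with its 95% interval (vertical axis) of the 9 genes (horizontal axis) on their brightest probe sets, for 2-cell minus 1-cell embryos (left) and amanitin minus untreated 2-cell embryos (right), by origin. Filled symbols had an adjusted p below 0.05. Ccnh is the gene whose stage difference is positive in SCNT and fertilized embryos and negative (-0.86) in parthenogenetic ones. Larp7 and Cdk12 have amanitin effects of opposite sign in SCNT and fertilized embryos, for Cdk12 on this probe set alone.

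The stages were also compared among embryos cultured with amanitin, on the brightest probe set of each gene unless another is named. Between treated 2-cell and treated 1-cell SCNT embryos 6 of 9 genes fell and 3 were not called, against 55.4% of all genes called. Between treated fertilized embryos 5 fell, 2 rose and 2 were not called, against 40.6%. Cdk7 had the largest falls, -2.67 (SE 0.17) in SCNT and -2.20 (SE 0.17) in fertilized embryos, followed by Ccnt1 with -2.36 (SE 0.27) and -2.16 (SE 0.27). Hexim1 was not called in either (-0.26, SE 0.42, and 0.78, SE 0.42). Larp7 was at 0.00 (SE 0.14) in SCNT and fell in fertilized embryos (-1.78, SE 0.14). The second Larp7 probe set rose in SCNT embryos (mean 9.02 against 8.08) and was not called in fertilized ones. The small rise of Cdk12 in fertilized embryos (0.51, SE 0.18) became -0.10 under median centring.

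Between origins at the 2-cell stage, 3 of 9 genes were called in SCNT against fertilized embryos, close to the 30.6% of all genes. Cdk9 was lower in SCNT (-0.42, SE 0.15, adjusted p = 0.0237), with no overlap of arrays, a call lost without 2-cell SCNT replicate 1 (-0.37) or 3 (-0.38) or 2-cell fertilized replicate 4 (-0.36). Supt5 and Ccnh were the others, as given above. In parthenogenetic against fertilized embryos 6 of 9 were called, against 47.4% of all genes: Ccnt1, Supt5 (-0.84, SE 0.13), Cdk7 (-1.43, SE 0.17) and Ccnh (-2.28, SE 0.19) were lower and Hexim1 and Cdk12 (0.82, SE 0.18) higher. Cdk9 was at -0.09 (95% interval -0.39 to 0.21) and not called. Among treated 2-cell embryos 6 of 9 were called between SCNT and fertilized, against 43.2%, with Cdk12 (-1.76, SE 0.18), Ccnt1 (-1.23, SE 0.27), Cdk9 (-0.74, SE 0.15), Supt5 (-0.74, SE 0.13) and Cdk7 (-0.49, SE 0.17) lower and Larp7 (0.82, SE 0.14) higher. All these calls are those of the brightest probe sets. Over its 6 probe sets kept, Cdk12 had 2 called higher, 1 lower and 3 not called in parthenogenetic against fertilized embryos. Between treated SCNT and fertilized embryos it had 1 called higher, 2 lower and 3 not called.

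At the 1-cell stage, parthenogenetic embryos differed from fertilized ones in 4 of 9 genes, against 20.4% of all genes. Cdk9 (0.73, SE 0.15) and Supt5 (0.73, SE 0.13) were higher, and Larp7 (-0.61, SE 0.14) and Cdk7 (-0.68, SE 0.17) lower. Among treated 1-cell embryos 3 of 9 were called between SCNT and fertilized, against 21.5%: Ccnt1 (-1.02, SE 0.27) and Larp7 (-0.95, SE 0.14) were lower and Ccnt2 (0.45, SE 0.14) higher, the last of these becoming 0.08 and not called under median centring. Both comparisons were read on the brightest probe sets. Among treated embryos Ccnt1 and Ccnt2 each had 1 probe set called higher and 1 called lower. The second Larp7 probe set was not called there.

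A wider list of 41 pausing and elongation genes was described beside these 9, of which 36 were tested. Each was read on its brightest probe set alone, and other probe sets of these genes were not looked at. Between the stages 18 rose, 10 fell and 8 were not called in SCNT embryos, 14, 10 and 12 in parthenogenetic, and 18, 11 and 7 in fertilized embryos. The shares called were 77.8%, 66.7% and 80.6%, against 60.7%, 49.1% and 60% of all genes. The median difference was 0.34, 0.08 and 0.46 in those origins, beside the medians over all genes given above. In fertilized embryos the 4 largest called differences were rises of Ell2 (4.86, SE 0.16) and Aff4 (3.64, SE 0.23), members of the super elongation complex that carries P-TEFb, of Ppm1g (3.35, SE 0.23), a phosphatase that releases P-TEFb from 7SK, and of Rtf1 (2.47, SE 0.43), linked to the PAF complex. The 1-cell fertilized arrays of Rtf1 were all below the overall median (mean 4.62), and its difference ran from 1.88 to 2.86 with the other constants, tried after seeing the data. With the constant that gave 1.88, Ice2, a subunit of the little elongation complex, was larger in size (-2.31). Of the direct partners, Nelfe, a NELF subunit, rose (1.19, SE 0.16), Hexim2, a relative of Hexim1, fell (-1.84, SE 0.21), and Mepce, which caps 7SK RNA, fell (-0.71, SE 0.11). The other NELF subunits, named after their values were seen, did not all move with Nelfe: Nelfb rose (1.69, SE 0.39), Nelfa fell (-0.61, SE 0.11) and Nelfcd was not called (0.46, SE 0.22). Cyclin K (Ccnk, -0.34, SE 0.23) and Mnat1 (0.20, SE 0.16), the third CDK-activating kinase subunit, were not called.

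With amanitin at the 2-cell stage 24 of the 36 fell, 7 rose and 5 were not called in SCNT embryos, and 23, 12 and 1 in fertilized embryos. The shares called were 86.1% and 97.2%, against 69.2% and 64.3% of all genes (29.7% and 25.8% lower). The median differences of the 36 were -1.31 and -1.05, against medians over all genes of 0.28 and 0.27. The largest falls in SCNT embryos were those of Wdr61 (-6.71, SE 0.20), a PAF complex subunit, Ppm1g (-5.98, SE 0.23), Nelfcd (-4.03, SE 0.22), a NELF subunit, and Paf1 (-3.52, SE 0.32). The treated level of Wdr61 was below the overall median on all arrays (mean 4.17), those of Nelfcd (5.13), Paf1 (4.87) and Ppm1g (5.59) lay around it, and the difference of Wdr61 ran from -7.35 to -5.80 with the other constants. In fertilized embryos they were those of Paf1 (-4.02, SE 0.32), Ppm1g (-4.00, SE 0.23), Aff4 (-3.80, SE 0.23) and Ell2 (-3.55, SE 0.16). Nelfe fell in both (-2.39, SE 0.16, and -2.28, SE 0.16), as did Nelfb and Nelfcd, whereas Nelfa fell in SCNT (-1.17, SE 0.11) and was higher in fertilized embryos (0.26, SE 0.11, with overlap). Mnat1 fell in both (-2.30, SE 0.16, and -1.67, SE 0.16). Hexim2 gave -0.70 (SE 0.21) in SCNT and 0.65 (SE 0.21) in fertilized embryos, both called, with overlap of arrays in both. Ccnk (0.85, SE 0.23) and Mepce (0.48, SE 0.11) rose in fertilized embryos and were not called in SCNT embryos.

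In 2-cell parthenogenetic against fertilized embryos 17 of the 36 were lower, 10 higher and 9 not called, with a median of -0.32 beside 0.07 over all genes. The share called was 75%, against 47.4% of all genes. The largest differences were those of Aff4 (-2.50, SE 0.23), Nelfcd (-2.48, SE 0.22), Ell2 (-2.39, SE 0.16) and Wdr61 (-2.06, SE 0.20). In SCNT against fertilized 2-cell embryos 10 were lower, 4 higher and 22 not called, so 38.9% were called, against 30.6% of all genes. Mnat1 was lower in parthenogenetic embryos (-1.0, SE 0.16), as Cdk7 and Ccnh were.

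**Figure D5:**
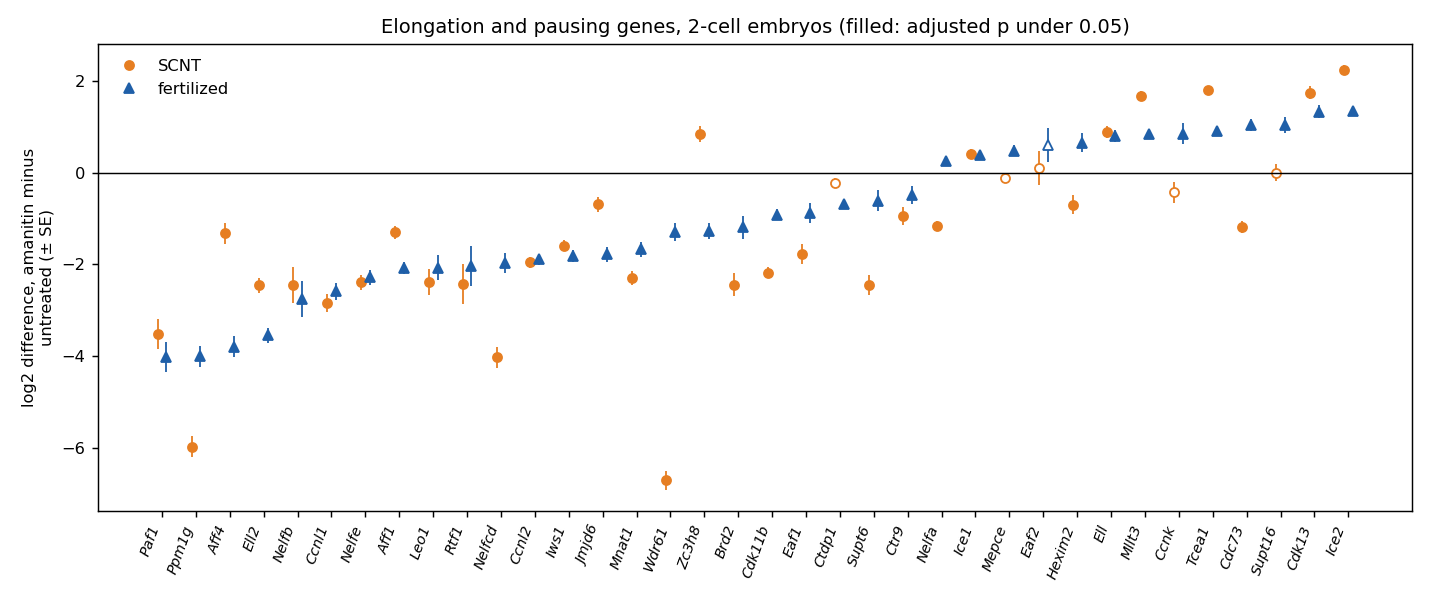
Log2 difference ± SE (vertical axis) between amanitin and untreated 2-cell embryos for the 36 pausing and elongation genes tested (horizontal axis, ordered by the value in fertilized embryos), for SCNT and fertilized embryos. Filled symbols had an adjusted p below 0.05; in SCNT embryos Wdr61 and Ppm1g lie lowest, at -6.71 and -5.98.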

How the data were processed

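The deposited table holds 1 linear-scale intensity per probe set and array, scaled by the authors so that each array's mean without the outer 2% at either end is 150; the software is not given in the sources used here. Per the labels' protocols, RNA was extracted with a PicoPure kit and biotin-labelled with an Enzo kit. One 1-cell SCNT sample had no values. From 45101 probe sets, 64 controls were set aside and 31153 stood above the overall median on at least 4 arrays. Intensities plus 6.9 (their 20th percentile) were taken to log2, quantile-normalized and fitted with limma 3.58.1 (R 4.3.3, trended variance) over all 10 groups with 29 residual degrees of freedom. P-values were Benjamini-Hochberg adjusted over 14916 genes, each on its brightest single-gene probe set, at a threshold of 0.05; the number of arrays limits precision. The steps were tested on simulated data. The 9 genes and all lists were chosen with earlier results of these data known. Every one of the 9 is named, and of the elongation list the 4 largest called differences per main comparison and 5 direct partners. Replicate numbers did not pair samples (correlation of deviations -0.049 to 0.092 over 15 comparisons). Alternatives were 11 processing settings, every other probe set, and leaving out each of 39 arrays. Other probe sets and left-out arrays were tried for the 9 genes only, not for the elongation list.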

Additional observations from a re-analysis of the deposited data

Results flagged for a closer look

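Of 81 sets of 4 replicate values of the 9 genes, 5 held an array far from the other 3, where chance gives about 1 in 20. Ccnt2 was at 8.91 in 2-cell fertilized replicate 2, against 8.94 on the others. Larp7 was at 9.94 in 1-cell fertilized replicate 4, against 9.77 to 9.79. Supt5 was at 8.11 in replicate 4 of the 2-cell SCNT embryos with amanitin, against 8.63 to 8.67. Cdk12 was at 8.71 in 2-cell parthenogenetic replicate 2, against 8.18 to 8.26, and at 9.17 in 1-cell fertilized replicate 3, against 8.45 to 8.54.

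Of 27 tests of whether an effect differed between origins, 8 passed an adjusted p of 0.05. For the amanitin contrast the share called was 44.4% of the 9 genes, against 38.9% of all genes. For the stage contrasts it was 0% against 19% (SCNT minus fertilized) and 44.4% against 35.4% (parthenogenetic minus fertilized). The amanitin effect at the 2-cell stage, SCNT minus fertilized, differed for Ccnt2 (-0.57, adjusted p = 0.0211), Larp7 (0.92), Supt5 (-1.29) and Cdk12 (-2.07). Other probe sets of Ccnt2 gave 1.21, 0.66, 0.78 and -0.33 for this contrast. Over the 6 probe sets of Cdk12 it was called lower on 3, higher on 1 and not called on 2. The stage effect, parthenogenetic minus fertilized, differed for Cdk9 (-0.83), Supt5 (-1.57), Cdk7 (-0.75, adjusted p = 0.0116) and Ccnh (-2.32).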

How the results depend on the processing

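All calls between the stages in SCNT and fertilized embryos, and with amanitin in 2-cell fertilized embryos, kept direction and call under 10 processing alternatives. The exception was the average over all probe sets of a gene. For that average only turned signs are listed, and any difference that shrank without turning is not. Between the stages in fertilized embryos Cdk7 and Larp7, not listed for that comparison, each had 1 probe set called higher and 1 lower. That average turned round Cdk12 (0.24, 0.20 and 0.44 for the stage in SCNT, parthenogenetic and fertilized embryos, -0.45 with amanitin in 2-cell fertilized embryos), Ccnt1 (1.71 and 0.80 for the stage in SCNT and parthenogenetic embryos), Cdk7 (-0.11 and -0.17 for the same), Larp7 (0.47 for the stage with amanitin in SCNT) and Ccnt2 (0.31 for that comparison, 0.93 and 0.58 with amanitin in 2-cell SCNT and fertilized embryos, 0.41 for SCNT over fertilized with amanitin and 0.52 for parthenogenetic over fertilized at the 2-cell stage, 0.35 for the amanitin contrast between origins). Median centring turned round Supt5 (-0.14, stage, parthenogenetic) and Cdk12 (-0.10, stage with amanitin, fertilized); the median of all genes in those comparisons was -0.04 and 0.11 with quantile normalization, 0.21 and 0.32 as deposited and -0.26 and -0.15 when centred. The cause was not tested.

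The count for SCNT over fertilized at the 1-cell stage was 0 with no filter, median centring, the mean of probe sets, no trend, only the groups compared and the replicate block. With amanitin in 1-cell fertilized embryos it was 1 with the filter on the mean, 2 as deposited, 4 with median centring, 2 with array weights and 1 with only the groups compared. The stage contrast of SCNT with fertilized embryos had 1 call as deposited, with median centring and with the mean of probe sets. SCNT over fertilized at the 2-cell stage had 1 with median centring, the stage with amanitin in fertilized embryos 3 with the mean of probe sets, and SCNT over fertilized with amanitin at the 1-cell stage 1 with the mean of probe sets and 5 with array weights or only the groups compared. Leaving out 1 array gave 0 to 1 calls for SCNT over fertilized at the 1-cell stage, 0 to 1 for amanitin in 1-cell fertilized embryos and 1 to 3 for SCNT over fertilized at the 2-cell stage. The replicate block, with numbers that do not pair the samples, gave -0.49 for Larp7 between 1-cell SCNT and fertilized embryos (not called) and 5 in place of 4 calls for parthenogenetic over fertilized at the 1-cell stage.

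Calls lost without 1 array and not given above were Cdk7 in SCNT over fertilized with amanitin at the 2-cell stage (-0.40 and -0.36 without treated fertilized replicate 2 or 3), Cdk12 for the stage with amanitin in fertilized embryos (0.46 and 0.43 without 2-cell treated replicate 1 or 4), Ccnt2 in SCNT over fertilized with amanitin at the 1-cell stage (0.42 without treated fertilized replicate 1) and Ccnt2 in the amanitin contrast between origins (-0.49 without 2-cell SCNT replicate 2, -0.38 without treated replicate 2).

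Probe sets other than the brightest, numbered by brightness within a gene, are listed where they gave the opposite sign to it and at least 1 of these 2 values was called; opposite signs with neither called are not listed. For the stage in SCNT embryos, Ccnt1 had 3.43 on the second, Ccnt2 had 1.92 on the fifth, Larp7 had 0.37 on the second, Cdk7 had -1.74 on the second, -0.14 on the third and -0.15 on the fourth, Ccnh had -0.88 on the third, and Cdk12 had 0.79 on the fourth, 1.26 on the fifth and 2.68 on the sixth. For the stage in parthenogenetic embryos, Ccnt1 had 2.16 on the second, Ccnt2 had 1.70 on the fifth, Larp7 had 0.06 on the second, Cdk7 had -1.61 on the second and -0.32 on the third, and Cdk12 had 1.32 on the fourth, 1.5 on the fifth and 0.35 on the sixth. For the stage in fertilized embryos, Ccnt2 had 1.74 on the fifth, Larp7 had 0.87 on the second, Cdk7 had -1.13 on the second, -0.01 on the third and -0.55 on the fourth, Ccnh had -0.01 on the third, and Cdk12 had 0.98 on the third, 1.90 on the fourth, 1.99 on the fifth and 0.49 on the sixth. For the stage with amanitin in SCNT embryos, Ccnt2 had 1.76 on the second, 1.05 on the fourth and 0.98 on the fifth, Larp7 had 0.94 on the second, Cdk7 had 0.16 on the third, and Cdk12 had 0.05 on the fourth, 1.09 on the fifth and 0.31 on the sixth. For the stage with amanitin in fertilized embryos, Ccnt1 had 0.85 on the second, Ccnt2 had 0.47 on the second and 0.70 on the fourth, Cdk7 had 0.06 on the second and 1.16 on the fourth, and Cdk12 had -0.73 on the second and -0.05 on the sixth. In amanitin in 1-cell SCNT embryos, Ccnt2 had -1.26 on the fifth. In amanitin in 1-cell fertilized embryos, Ccnt1 had -1.36 on the second. In amanitin in 2-cell SCNT embryos, Ccnt2 had 3.11 on the second, 3.08 on the third and 1.46 on the fourth, Cdk7 had 0.64 on the second, 0.42 on the third and 0.38 on the fourth, Ccnh had 0.81 on the third, and Cdk12 had 0.55 on the second. In amanitin in 2-cell fertilized embryos, Ccnt2 had 1.90 on the second, 2.43 on the third and 0.68 on the fourth, Cdk7 had 0.94 on the second, 0.09 on the third and 1.09 on the fourth, and Cdk12 had -0.33 on the third, -1.79 on the fourth, -1.55 on the fifth and -0.98 on the sixth. In 1-cell SCNT over fertilized embryos, Larp7 had 0.01 on the second. In 1-cell SCNT over fertilized embryos with amanitin, Ccnt1 had 0.98 on the second, Ccnt2 had -0.02 on the second and -0.72 on the fifth, and Larp7 had 0.04 on the second. In 1-cell parthenogenetic over fertilized embryos, Ccnt2 had 0.47 on the second and 0.62 on the fifth. In 2-cell SCNT over fertilized embryos, Ccnt2 had -0.66 on the third, Ccnh had -0.45 on the third, and Cdk12 had -1.71 on the third and -0.66 on the fourth. In 2-cell SCNT over fertilized embryos with amanitin, Ccnt2 had 1.27 on the second and 0.75 on the fourth, and Cdk12 had 0.20 on the second, 0.77 on the fifth and 0.46 on the sixth. In 2-cell parthenogenetic over fertilized embryos, Ccnt2 had 1.19 on the second, 0.90 on the third and 0.57 on the fifth, Cdk7 had 0.53 on the fourth, and Cdk12 had -1.12 on the third and -0.14 on the fourth. For the amanitin effect, SCNT minus fertilized, Ccnt2 had 1.21 on the second, 0.66 on the third and 0.78 on the fourth, and Cdk12 had 0.12 on the second, 0.61 on the fourth and 1.14 on the fifth. For the stage effect, SCNT minus fertilized, Cdk12 had 2.19 on the sixth. For the stage effect, parthenogenetic minus fertilized, Larp7 had -0.81 on the second, Cdk7 had 0.74 on the fourth, and Cdk12 had -1.39 on the third. Signal near the overall median of 5.34 limits the size of differences: Hexim1 with amanitin at the 2-cell stage ran from -4.67 to -3.91 in SCNT and from -4.26 to -3.49 in fertilized embryos with the constant.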

Other observations

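Over the 10 group means Supt5 correlated with Cdk9 at r = 0.88 and with Hexim1 at r = 0.87, and Cdk7 with Ccnh at r = 0.80. Larp7 and Cdk9 ran against each other (r = -0.66). Cdk9 correlated with Ccnt1 at r = 0.22 on its brighter probe set, and with Ccnt2 and Cdk12 at r = -0.49 each on their brightest ones. Correlations with their other probe sets were not tested, and these probe sets disagreed. Between the stages in fertilized embryos Cdk9 rose, while Ccnt2 had 1 probe set called higher and 3 lower, and Cdk12 had 3 higher and 2 lower. The dimmest Ccnt2 probe set had means of 8.04, 7.92 and 7.35 in untreated 2-cell SCNT, parthenogenetic and fertilized embryos and of 4.86 to 6.23 elsewhere. All correlations given here are for the brightest probe sets and describe 10 groups that share stage and treatment. Over the 15 differences between groups, Larp7, Supt5 and Cdk7 were called most often (10 each) and Hexim1 least often (6). The share of all genes called in these comparisons ran from 0.429% to 69.2%. Hexim1 had the widest range of group means of the 9 genes (5.84) and also the largest SE (0.42 to 0.45). All 7 calls of Ccnt1 on its brighter probe set were lower.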
